A study of Mus musculus with 2 samples.

Results

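The GIMAP family (GTPases of immunity-associated proteins) was followed through the immune cells of mouse oral tumours. Its 8 members in the count table, Gimap1, Gimap3, Gimap4, Gimap5, Gimap6, Gimap7, Gimap8 and Gimap9, were selected by gene symbol, and all 8 were found among 32285 genes. The family was proposed as a set with results on these data in view, among them the higher Gimap9 level of Momordicine-I B cells, so its values are given as a description and carry no test.

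The tumours grew under the skin from MOC2 cells, a mouse oral squamous carcinoma line, in female C57BL/6 animals that were 6 to 7 weeks old. Mice of the treated arm had daily intraperitoneal Momordicine-I, a triterpenoid of bitter melon, at 30 mg/kg, and mice of the other arm had the vehicle, 5% DMSO with Captisol. Both arms carried the same tumour line and no engineered allele was named. Tumours of 3 out of 10 mice in an arm were combined, live CD45-positive cells were sorted, and 1 single-cell library was made per arm, so every comparison is between 2 libraries without replicates.

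GIMAP proteins bind GTP through a domain also found in the plant protein AIG1, and in vertebrates they are known mainly from lymphocytes. Gimap5 is needed for the survival of resting T cells, and rodents that lack it are short of lymphocytes. Gimap1 is required for mature T and B cells, Gimap6 binds a GABARAP-type autophagy protein, and Gimap4 has been tied to the timing of T cell death. Gimap8 differs from the others in holding several GTP-binding domains in 1 protein. The genes lie side by side in the genome, which makes them a compact set for asking whether neighbours share a cell-type pattern.

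The cluster occupied 123618 bases of chromosome 6 in the mouse GRCm38 build (chr6:48647234-48770851). The order was Gimap8, Gimap9, Gimap4, Gimap6, Gimap7, Gimap1, Gimap5 and Gimap3, with 6 genes on the plus and 2, Gimap6 and Gimap3, on the minus strand. Gimap5 and Gimap3 were the closest relatives, with 90.4% identical bases over 895 aligned coding bases, and no other pair exceeded 73.9%. The final 500 bases of the longest coding transcript of each member, where 3′ reads fall, shared no run of 50 bases with another member. Of 451 such runs, 36 of Gimap1 and 16 of Gimap3 also occurred in other annotated genes, and Gimap1 overlaps the antisense gene Gimap1os over 2391 bases, so these counts carry some uncertainty. The read-through gene Gm28053, which spans Gimap7, Gimap1 and part of Gimap5, was not in the count table.

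The sequences just before the start sites are shown for 5 members that set the pattern apart: Gimap4 and Gimap7, which were low in ILC2 and at 0 or 1 UMI in basophils; Gimap3 and Gimap5, the near-identical pair that parted in basophils; and Gimap9, the member that differed most between the B cells of both libraries. Each run is the 250 bases before the RefSeq start in GRCm38.p6, written 5′ to 3′ on the gene's own strand. Capitals mark matches, on either strand, to the RUNX-type letters TGTGGT or the KLF-type letters CCACCC.
Gimap4 (chr6:48684328-48684577, plus strand): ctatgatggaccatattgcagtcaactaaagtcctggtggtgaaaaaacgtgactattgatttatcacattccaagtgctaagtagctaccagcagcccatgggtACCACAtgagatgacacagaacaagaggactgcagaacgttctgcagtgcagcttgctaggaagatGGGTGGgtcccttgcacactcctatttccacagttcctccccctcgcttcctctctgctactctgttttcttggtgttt
Gimap7 (chr6:48718371-48718620, plus strand): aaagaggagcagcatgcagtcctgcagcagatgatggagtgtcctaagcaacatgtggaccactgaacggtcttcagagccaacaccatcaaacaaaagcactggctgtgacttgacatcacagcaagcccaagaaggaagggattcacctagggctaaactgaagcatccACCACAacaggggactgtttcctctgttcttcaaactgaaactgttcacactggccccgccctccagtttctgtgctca
Gimap3 (chr6:48770852-48771101, minus strand): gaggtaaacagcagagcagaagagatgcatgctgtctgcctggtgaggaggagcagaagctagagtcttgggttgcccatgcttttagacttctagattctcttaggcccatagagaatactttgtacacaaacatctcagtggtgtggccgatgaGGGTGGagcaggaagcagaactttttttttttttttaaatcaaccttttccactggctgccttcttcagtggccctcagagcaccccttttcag
Gimap5 (chr6:48745947-48746196, plus strand): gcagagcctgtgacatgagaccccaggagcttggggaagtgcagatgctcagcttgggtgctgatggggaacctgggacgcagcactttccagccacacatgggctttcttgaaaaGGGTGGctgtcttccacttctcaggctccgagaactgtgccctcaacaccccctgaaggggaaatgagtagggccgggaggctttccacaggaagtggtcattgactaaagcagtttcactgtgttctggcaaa
Gimap9 (chr6:48675885-48676134, plus strand): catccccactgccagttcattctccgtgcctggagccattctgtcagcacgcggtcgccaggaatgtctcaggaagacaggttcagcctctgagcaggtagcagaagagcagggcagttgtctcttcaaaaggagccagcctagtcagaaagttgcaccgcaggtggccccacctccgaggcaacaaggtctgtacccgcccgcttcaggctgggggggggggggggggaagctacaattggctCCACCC

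Promoter windows of 300 bases, from 250 before to 50 after the start, were matched for all 8 members. Gimap8 had an additional start, so there were 9 windows, and a member was counted where any of its windows matched. The shares of RefSeq promoters are per window. RUNX-type letters occurred in 3 of 8 members, Gimap4 (position -145 from the start), Gimap1 (-95) and Gimap7 (-79), against 16.8% of 32851 RefSeq promoters. KLF-type letters occurred in 5 of 8 members, Gimap8, Gimap9, Gimap4, Gimap5 and Gimap3, against 31.5% of promoters. For Gimap8 only the window of the downstream start held them, at position -7. The ETS-type letters CCGGAA and the GATA-type letters AGATAA occurred in 0 of 8, against 14.9% and 11.2% of promoters. These are matches of letters in a window and say nothing of binding.

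After filters of at least 200 genes and at most 10% mitochondrial UMIs (unique molecular identifiers, 1 per captured transcript), 3364 vehicle and 4370 Momordicine-I barcodes remained, with medians of 5760 and 5002 UMIs. Cell types were gated by marker genes, none of them a GIMAP gene: Cd79a and Ms4a1 among others for B cells, the CD3 and T cell receptor genes for T cells, Ncr1 and Klrb1c for NK cells, Gata3 and Il1rl1 for ILC2, and Mcpt8 and Cd200r3 for basophils. Of kept barcodes, 31.2% and 27.9% fell in no gate. The B gate held 218 and 88 cells, the T gate 339 and 328, the NK gate 40 and 89, the ILC2 (group 2 innate lymphoid cell) gate 36 and 34 and the basophil gate 25 and 22. T cells were split into naive-like (Lef1 or Tcf7, 194 and 116), regulatory (Foxp3, 75 and 48), gamma-delta (Trdc with a gamma constant gene, 43 and 137) and other (27 and 27). The libraries shared 7 kept barcodes. Although the sort was on CD45, 38 vehicle and 119 Momordicine-I barcodes passed the carcinoma gate. Endothelial (3 and 7) and fibroblast (3 and 8) gates were too small to read.

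Levels are counts per 1000000 of the summed UMIs of a gate (CPM), with an exact Poisson 95% interval. Intervals cover counting error only, treat UMIs of a cell as independent and leave out variation between mice. As the UMIs mark 3′ ends, CPM is not divided by transcript length.

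GIMAP levels were highest in the lymphocyte gates, lower in basophils and far lower in the other myeloid gates. Summed over the 8 members, the family stood at 2465 CPM in vehicle and 2263 in Momordicine-I naive-like T cells. Other T cells, 27 in each library, were at 1198 and 1604 CPM. Regulatory T cells held 1696 and 1387 CPM, gamma-delta T cells 1605 and 1104, B cells 1020 and 1549, and ILC2 952 and 1116. Basophils, which are not lymphocytes, held 511 and 523 CPM. Neutrophils, the most numerous cells, held 27.9 and 20.1 CPM, mononuclear phagocytes 50.5 and 28.1, and dendritic cells 13.5 and 27.1. In ILC2 and basophils the intervals of both libraries overlapped. B, T, NK and ILC2 gates together held 68.6% and 67.7% of all GIMAP UMIs of kept barcodes, and 27.9% in both libraries lay in ungated barcodes.

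Carcinoma cells held 166 CPM in vehicle and 10.4 in Momordicine-I. In vehicle, 1 of 38 cells carried 80.5% of these 41 UMIs.

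**Figure D1:**
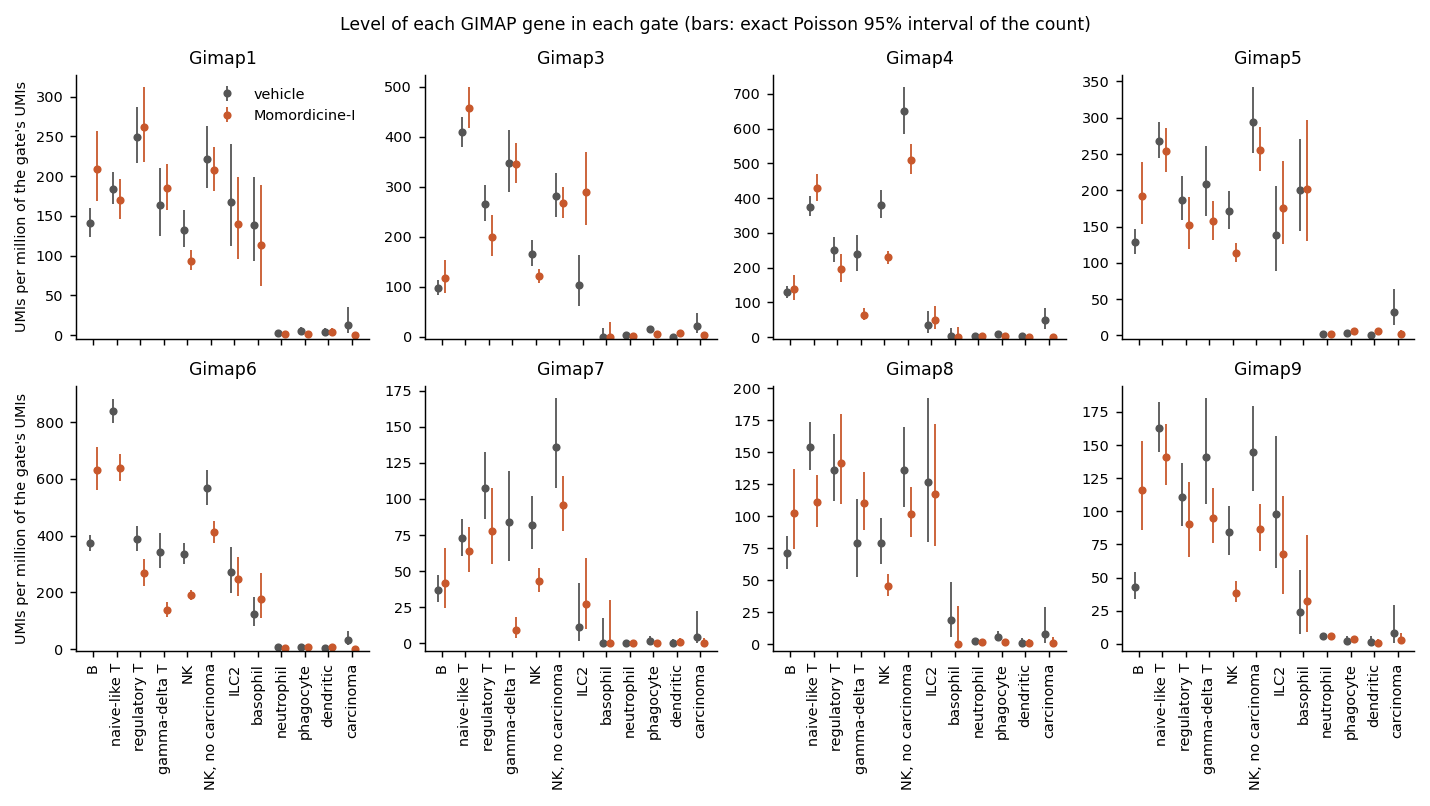
Level of each GIMAP gene in 12 gates (NK in both versions), 1 panel per gene; the y axes are linear, in CPM, and differ between panels. Points are 1 library each (grey, vehicle; orange, Momordicine-I), lines are exact Poisson 95% intervals, and "NK, no carcinoma" leaves out NK-gated cells with 3 or more carcinoma markers; neutrophils, phagocytes and dendritic cells sit near 0 in every panel, and basophils rise above them for Gimap1, Gimap5 and Gimap6.

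Most lymphocytes carried several members at once. Naive-like T cells had a median of 6 of the 8 genes detected in both libraries, and 92.8% and 89.7% had 4 or more. B cells had a median of 4 and 3, and gamma-delta T cells 3 and 3. With each cell thinned to 2000 UMIs, the medians became 3 and 3 in naive-like T cells, 2 and 2 in B cells and 1 and 1 in gamma-delta T cells. At that depth 92.1% of vehicle and 87.1% of Momordicine-I T cells had a UMI of the family (97.9% and 96.3% before thinning, with 8 and 18 shallower cells left out), against 5.70% and 4.06% of neutrophils (14.0% and 9.04% before thinning, with 142 and 237 left out). Neutrophils, at a median of 5045 and 4428 UMIs against 7393 and 6430 in T cells, set the background share for a cell type not known for these genes.

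Gimap6 was the leading member in B and naive-like T cells. It reached 839 CPM in vehicle and 637 in Momordicine-I naive-like T cells, and 373 and 632 in B cells, where it made up 36.6% and 40.8% of the family's UMIs. Gimap7 was the member with the fewest UMIs in both of these gates, at 72.6 and 63.7 CPM in naive-like T cells and 36.9 and 41.8 in B cells.

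Over the whole gates, Gimap3 had the highest ratio of naive-like T to B cells. It held 409 and 457 CPM in naive-like T cells against 96.8 and 116 in B cells, a ratio of 4.22 in vehicle (95% interval 3.57 to 5.03) and 3.94 in Momordicine-I (2.94 to 5.38). For the whole family the ratio of naive-like T to B cells was 2.42 in vehicle (2.29 to 2.56) and 1.46 in Momordicine-I (1.34 to 1.59). Gimap1, the member required by both lineages, was at 195 CPM in T and 141 in B cells of vehicle, a ratio of 1.39 (1.2 to 1.62). In Momordicine-I it was at 194 and 209, a ratio of 0.930 with an interval that included 1. The vehicle B gate here includes 7 plasma-type cells, taken up below. Without them Gimap1, Gimap3, Gimap9 and the family were at 162, 118, 46.4 and 1189 CPM in vehicle B cells. The vehicle ratios given here are thus higher than they would be without those cells. The lead of Gimap3 over Gimap9 in vehicle, where Gimap9 had a ratio of 3.77 (2.91 to 4.92), also rests on those cells. Regulatory T cells carried more Gimap1 than naive-like T cells, 250 against 184 CPM in vehicle and 262 against 170 in Momordicine-I, and less Gimap6, 388 against 839 and 268 against 637.

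**Figure D2:**
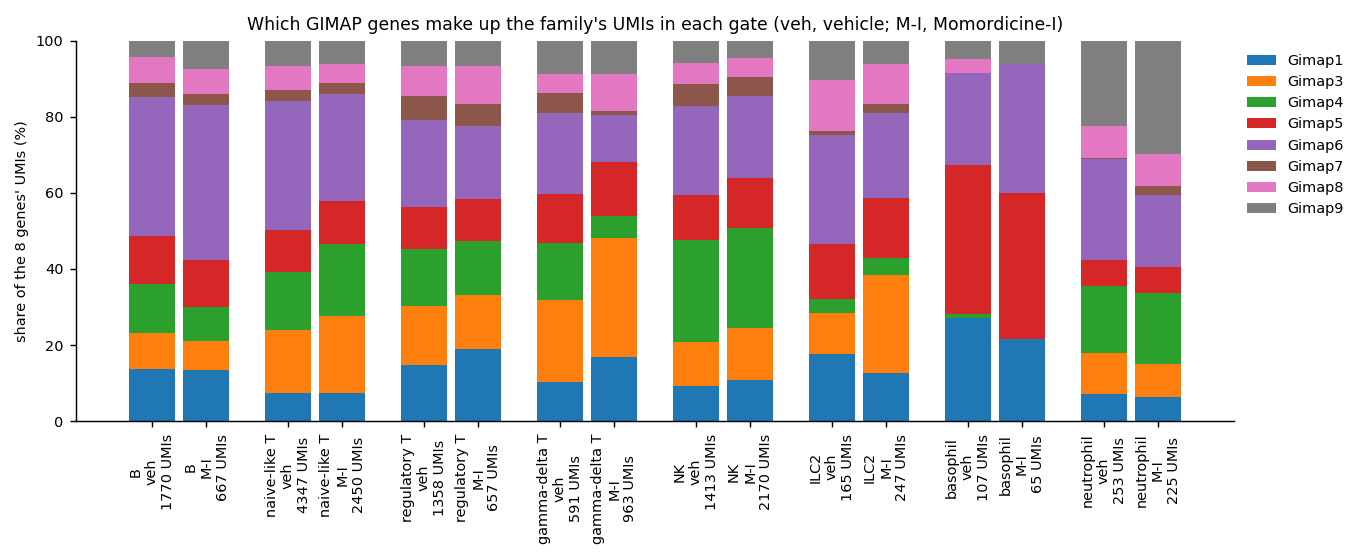
Stacked bars give the share (%) of the 8 genes' UMIs that each gene made up in 8 gates, for vehicle (veh) and Momordicine-I (M-I), with the number of UMIs under each bar. Gimap6 takes the largest share in B cells, basophils hold mainly Gimap1, Gimap5 and Gimap6, and Gimap9 takes 22.5% and 29.8% in neutrophils.

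Basophils held a subset of the family. Gimap5 stood at 201 CPM (42 UMIs, 95% interval 145 to 271) in vehicle and 201 (25 UMIs, 130 to 297) in Momordicine-I basophils, beside 235 CPM in vehicle T cells. Its near-identical relative Gimap3 had 0 UMIs in both libraries, where 3 UMIs would be 14.3 and 24.2 CPM. Gimap7 was also at 0 in both, Gimap4 had 1 UMI in vehicle and 0 in Momordicine-I, and Gimap1 held 138 and 113 CPM. In the map of the cluster Gimap5 lies between Gimap1 and Gimap3, so a gene with 0 UMIs and the member with the most UMIs were adjacent.

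Markers of T cells made up 0.000955% of vehicle and 0% of Momordicine-I basophil UMIs, against 0.203% and 0.223% in the T gate; the basophil gate itself leaves out cells with 2 T cell markers. Gimap5 was found in 48% and 50% of basophils, against 1.10% and 0.656% of neutrophils. With 25 and 22 basophils, 1 vehicle cell carried 35.7% of the Gimap5 UMIs.

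**Figure D3:**
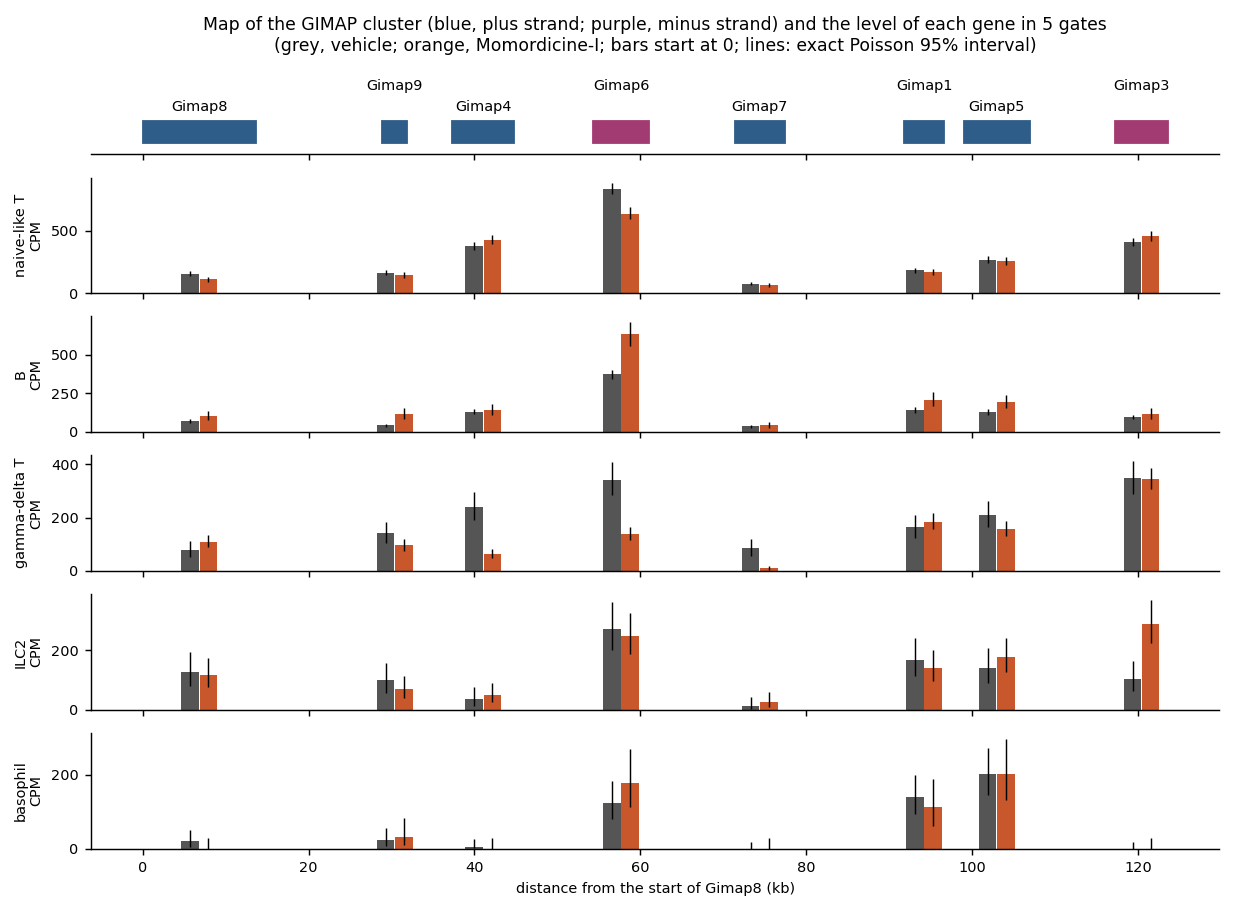
Map of the cluster along chromosome 6, as distance in kb from the start of Gimap8 (blue boxes, plus strand; purple, minus strand), above bars of each gene's level in CPM for 5 gates (grey, vehicle; orange, Momordicine-I; lines, exact Poisson 95% intervals; each y axis starts at 0 and has its own range). Gimap4 and Gimap7 are low in ILC2 and basophils while Gimap1 and Gimap5 are not, and Gimap3 is at 0 in basophils.

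ILC2 were also low for Gimap4 and Gimap7. Gimap4 held 34.6 CPM (6 UMIs) and 49.7 (11 UMIs) there, and Gimap7 11.5 (2 UMIs) and 27.1 (6 UMIs), against 376 and 429 CPM for Gimap4 and 72.6 and 63.7 for Gimap7 in naive-like T cells. In Momordicine-I the interval of Gimap7 in ILC2 (9.95 to 59.0 CPM) overlapped that of naive-like T cells (49.6 to 80.7), and its level in gamma-delta T cells was lower still, at 9.17. Other members were closer to the T cell levels: Gimap1 was at 167 and 140 CPM in ILC2 against 184 and 170 in naive-like T cells, and Gimap8 at 127 and 117 against 154 and 111. A single Momordicine-I ILC2 carried 72.7% of the Gimap4 UMIs. Gimap3 was at 104 CPM (18 UMIs) in vehicle and 289 (64 UMIs) in Momordicine-I ILC2, a ratio of 2.79 (1.63 to 5.00), where 1 Momordicine-I cell carried 26.6% of the UMIs. It was the sole member past 1.5-fold among 6 with at least 20 UMIs, in a gate below 50 cells where 26.4% of 2903 genes were higher and 14.9% lower by that fold. The ILC2 gate itself differed between the libraries. Gata3 was found in 91.7% of vehicle and 58.8% of Momordicine-I cells, Il1rl1 in 86.1% and 73.5%, and Il7r in 86.1% and 91.2%. At the minimum of 2 markers were 8 of 36 and 17 of 34 cells. Markers of T cells made up 0.0173% and 0.00678% of ILC2 UMIs. The part of these differences in the GIMAP levels was not tested.

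Gimap4 was higher in NK cells than in naive-like T cells once cells with carcinoma markers were set aside. Of NK-gated cells, 5 vehicle and 19 Momordicine-I cells also held 3 or more carcinoma markers, and these cells, at medians of 72699 and 69646 UMIs, made up 41.9% and 56.1% of the gate's UMIs but 1.34% and 2.86% of its GIMAP UMIs. Without them, Gimap4 stood at 650 CPM in 35 vehicle and 511 in 70 Momordicine-I cells, against 376 and 429 in naive-like T cells. The family stood at 2430 and 1936 CPM, a ratio of 0.797 (0.744 to 0.853), with Gimap9, at 145 and 86.3 CPM, the sole member past 1.5-fold (0.597, 0.439 to 0.812), where 12.7% of 6902 genes were lower and 9.27% higher. With the carcinoma-marker cells left in, the family was at 1431 and 875 CPM, its ratio was 0.612 (0.572 to 0.654), and 6 of 8 members were lower by 1.5-fold, where 17.4% of 9659 genes were lower and 12.1% higher. Requiring 3 NK markers gave a family ratio of 0.820 (0.765 to 0.879). The vehicle gate had fewer than 50 cells in each of these versions.

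In gamma-delta T cells, Gimap4, Gimap6 and Gimap7 were lower in Momordicine-I and Gimap3 was not. Tumour gamma-delta T cells comprise an IL-17-producing type, which lacks CD27, and a type that keeps it. Over the gate, Gimap4 was at 239 CPM (88 UMIs) in vehicle and 64.2 (56 UMIs) in Momordicine-I, a ratio of 0.269 (0.189 to 0.380), or 0.490 as a mean over cells. Gimap6 was at 342 and 138 CPM, a ratio of 0.402 (0.310 to 0.520), or 0.651 as a mean over cells and 0.611 with cells thinned to 2000 UMIs. Gimap7 was at 84.2 CPM (31 UMIs) and 9.17 (8 UMIs), a ratio of 0.109 (0.043 to 0.242), or 0.283 as a mean over cells and 0.6515 thinned. The thinned Gimap7 value rests on 2 of 43 vehicle and 4 of 132 Momordicine-I cells, shares whose intervals overlapped. The size of these 3 differences moved with how cells were weighted, and each stayed below 1 in 10 of 10 alternatives. These 3 of 8 members were lower by 1.5-fold or more and 0 were higher, where 14.3% of 6425 genes were lower and 15.3% higher, and the vehicle gate had under 50 cells. Gimap3 was at 348 and 346 CPM, and Gimap1 at 163 and 185, with intervals of the ratio that included 1. The family ratio was 0.688 (0.620 to 0.763).

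The gamma-delta cells themselves differed between the libraries. Cd27 was at 43.5 CPM in vehicle and 11.5 in Momordicine-I, Ly6c2 at 253 and 44.7, and the cytokine gene Il17a at 758 and 1283. Gimap4 was found in 27.9% of vehicle and 15.3% of Momordicine-I gamma-delta cells, and Gimap6 in 44.2% and 40.9%. A single vehicle cell carried 30.7% of the Gimap4 UMIs, 1 carried 24.6% of the Gimap6 UMIs and 1 carried 29.0% of the Gimap7 UMIs. The part of this mix of cells in the GIMAP ratios was not tested.

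In B cells the family was higher in Momordicine-I, by a ratio of 1.52 (1.39 to 1.66). Gimap9 was at 43.2 CPM (75 UMIs) in vehicle and 116 (50 UMIs) in Momordicine-I, a ratio of 2.69 (1.84 to 3.90). Gimap6 was at 373 and 632 CPM (1.69, 1.46 to 1.95), and Gimap5 at 128 and 193 (1.5, 1.15 to 1.94). These 3 of 8 members were higher by 1.5-fold or more and 0 were lower, where 15% of 7427 genes were higher and 17.5% lower by the same fold. The higher Gimap9 level was known when the family was chosen, so this count is a description. Gimap1 and Gimap8 lay just under that fold, at 1.49 and 1.44, and Gimap3, Gimap4 and Gimap7 lay between 1.08 and 1.2 with intervals that included 1.

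Part of the B cell difference sat with plasma-type cells of the vehicle library. There, 7 B-gated cells with 3 or more plasma markers held 18.1% of the gate's UMIs, and Ighm was at 24598 CPM against 3651 in Momordicine-I, which had 0 such cells. Without them the family was at 1189 and 1549 CPM, a ratio of 1.30 (1.19 to 1.43), and 1 of 8 members, Gimap9 at 46.4 and 116 CPM, remained past 1.5-fold (2.5, 1.70 to 3.67), where 11.3% of 6995 genes were higher and 16.9% lower. Gimap6 was then at 443 and 632 CPM (1.43, 1.23 to 1.65) and Gimap5 at 136 and 193 (1.41, 1.08 to 1.84). Gimap3, Gimap4 and Gimap7 lay at 0.983, 0.918 and 0.929. The Gimap9 ratio ranged from 2.26 to 4.21 over 12 alternative settings. Gimap9 was also the member whose higher B cell level was known when the family was chosen. Gimap9 was found in 26.1% of vehicle and 36.4% of Momordicine-I B cells, and in 8.88% and 24.7% at 2000 UMIs per cell, with 4 and 3 shallower cells left out.

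**Figure D4:**
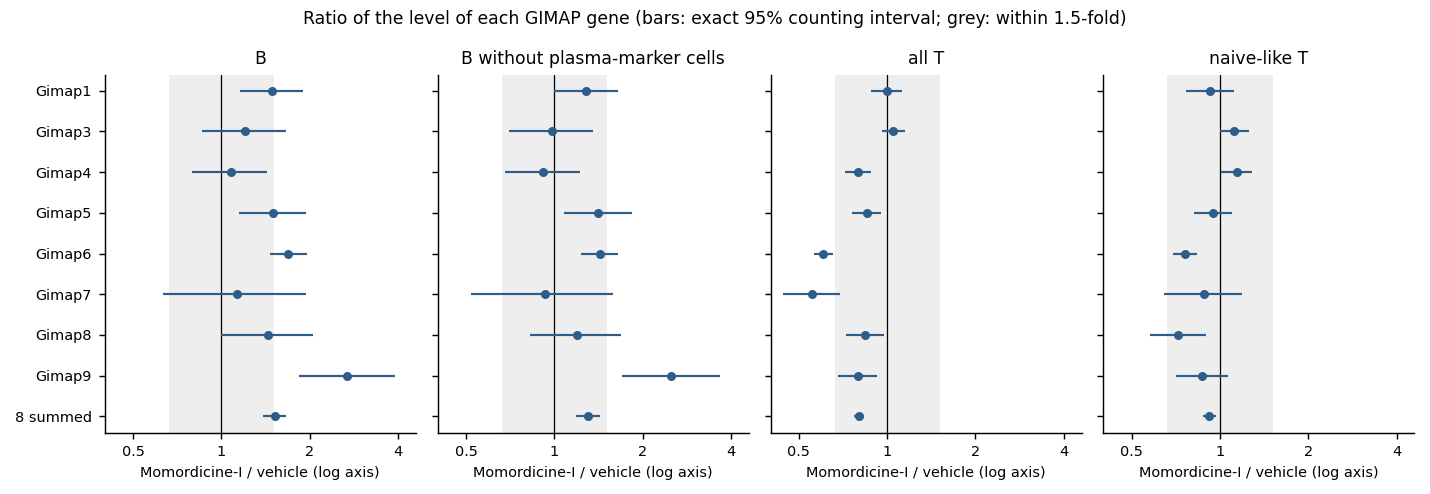
Ratio of Momordicine-I to vehicle level for each member and for the 8 summed, on a log axis, in the B gate, the B gate without plasma-marker cells, all T cells and naive-like T cells. Points are ratios of CPM, lines are exact conditional binomial 95% intervals and the grey band spans 1.5-fold lower to 1.5-fold higher; Gimap9 lies right of the band in both B panels, and Gimap6 and Gimap7 lie left of it in all T cells but inside it in naive-like T cells.

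T cells as a whole showed the opposite direction. The family was at 2089 CPM in vehicle and 1672 in Momordicine-I, a ratio of 0.8 (0.770 to 0.832). Gimap6, at 625 and 379 CPM, had a ratio of 0.606 (0.561 to 0.655), and Gimap7, at 81.3 and 45.0, a ratio of 0.553 (0.440 to 0.692). These 2 of 8 members were lower by 1.5-fold and 0 were higher, where 8.44% of 9973 genes were lower and 8.19% higher. Gimap3, at 356 and 374 CPM, and Gimap1, at 195 and 194, had intervals that included 1.

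The mix of T cells moved with this result. Naive-like cells were 57.2% of vehicle and 35.4% of Momordicine-I T cells, and gamma-delta cells 12.7% and 41.8%. With the 4 T cell subsets given equal weight in both libraries, the family ratio was 0.913, Gimap6 stood at 0.741 and Gimap7 at 0.528. That weighting counts the 27 other T cells of each library as much as any larger subset. The family ratio of other T cells went the other way, at 1.34 (1.11 to 1.61). An equal weighting without other T cells was not computed. Within naive-like T cells the family ratio was 0.918 (0.873 to 0.965), and 0 of 8 members passed 1.5-fold in either direction, where 9.96% of 8307 genes were higher and 11.6% lower. Gimap6 (0.760, 0.693 to 0.832) and Gimap8 (0.719, 0.575 to 0.894) had intervals below 1 there, and Gimap4 (1.14, 1.01 to 1.29) had an interval above 1. In regulatory T cells the family ratio was 0.818 (0.744 to 0.898), and 0 of 8 members passed 1.5-fold, where 10.4% of 6706 genes were higher and 11.9% lower; the Momordicine-I gate had 48 cells.

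Other lymphocyte genes were read from lists chosen with earlier results known. Of 14 genes of lymphocyte quiescence and survival, 4 were lower and 0 higher by 1.5-fold in T cells, where 8.44% of all genes were lower and 8.19% higher, with a median log2 ratio of -0.16 against 0.01 over all genes tested. They were the chemokine receptor gene Ccr7 (ratio 0.506), the transcription factor genes Bach2 (0.586) and Foxp1 (0.622), and S1pr1 (0.659), the receptor that guides lymphocytes out of tissue. Il7r, the interleukin-7 receptor gene, was on the other side of 1 (1.36, 1.29 to 1.44). Gamma-delta T cells had a median of 0.32, with 1 higher and 1 lower, against 15.3% and 14.3% of all genes there, and with S1pr1 at a ratio of 1.91 (1.30 to 2.90) and Klf2 at 1.40 (1.28 to 1.54). The naive-like T gate had a negative median, with 5 lower and 0 higher, where 11.6% and 9.96% of all genes were, and a median of -0.46, a larger shift than that of the GIMAP members in this gate, whose median was -0.15. Its own defining markers were lower in Momordicine-I too, Lef1 at a ratio of 0.642 and Tcf7 at 0.613, and Il17a had 0 UMIs in vehicle and 38 in Momordicine-I. The part of other cells in the gate was not tested.

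In B cells 2 of the 14 were higher and 1 lower, where 15% of all genes were higher and 17.5% lower, so the count was no larger than the background. The median was 0.35 against 0.03 over all genes tested. The higher ones were Ccr7 (2.06, 1.82 to 2.33) and Tsc1 (1.5, 0.789 to 2.72), and the lower one was Il7r, with 37 and 3 UMIs; Tsc1 and Il7r had intervals that included 1. Of 9 measured early activation genes in B cells, 3 were higher and 1 was lower, against the same 15% and 17.5% of all genes: Myc (2.27, 1.79 to 2.85), the nuclear receptor gene Nr4a1 (1.58, 1.32 to 1.90) and the early surface marker Cd69 (1.54, 1.33 to 1.78) were the higher ones, and 1 Momordicine-I cell carried 26.3% of the Myc UMIs. The lower one was Il2ra (0.611, 0.186 to 1.57), with an interval that included 1. These B cell values keep the 7 plasma-type vehicle cells, which held 18.1% of the vehicle gate's UMIs. The lists were not computed without those cells. In T cells 1 of 10, Cd44 (1.57, 1.41 to 1.75), was higher and 1, Myc (0.523, 0.415 to 0.654), was lower. Of all genes in T cells 8.19% were higher and 8.44% lower.

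The LC3 and GABARAP genes, the autophagy family to which GIMAP6 has been tied, held 1 of 5 higher and 0 lower in T cells, where 8.19% of all genes were higher, and 1 of 5 higher and 0 lower in B cells, where 15% were. In T cells it was Gabarapl1 (1.87, 1.33 to 2.66), at 18.2 and 34.1 CPM. In B cells it was a different gene, Map1lc3a (1.74, 0.960 to 3.04), with an interval that included 1. Gabarap itself was at 235 and 241 CPM in T cells and 256 and 253 in B cells, with intervals of the ratio that included 1. Of 8 BCL-2 family genes in T cells, 1, Bcl2a1b (1.56, 1.39 to 1.76), was higher and 0 were lower, against 8.19% and 8.44% of all genes. In B cells 1 (Bak1) was higher and 3 (Bcl2l1, Bcl2a1b and Bid) were lower, each with an interval that included 1, while Mcl1 was at 1.30 (1.15 to 1.46). Of all genes in B cells 15% were higher and 17.5% lower. The B gate used here also kept the plasma-type vehicle cells, and the values without them were not computed.

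Few of the genes that flank the cluster were measured in lymphocytes. Of 17 flanking genes within 200 kb of the cluster in the table, 2 reached 20 UMIs in B cells and 4 in T cells. The neighbouring pair Tmem176a and Tmem176b, which code for membrane proteins, lie beyond Gimap3. Tmem176a was at 60.2 CPM in vehicle and 303 in Momordicine-I T cells, a ratio of 5.04 (4.29 to 5.94), while the GIMAP family was lower there. Of these UMIs, 147 of 188 in vehicle and 640 of 782 in Momordicine-I lay in gamma-delta T cells. Gamma-delta cells were 12.7% and 41.8% of T cells, and their own Tmem176a ratio was 1.84 (1.53 to 2.21). The part of this mix in the ratio of 5.04 was not tested. In B cells Tmem176a went the other way, from 31.1 CPM (54 UMIs) to 0 UMIs, while the family was higher. The 0 UMIs allow up to 6.97 CPM (3 counts), and 1 vehicle B cell carried 40.7% of the 54 UMIs. The plasma-type cells were left in that B gate. In NK cells Tmem176a was at 107 and 62.1 CPM, lower together with the family. That NK gate had the carcinoma-marker cells left in, which made up 41.9% and 56.1% of its UMIs. Tmem176a without those cells was not computed. Tmem176a was at 399 and 734 CPM in gamma-delta T cells, 14.7 and 115 in naive-like T cells and 99.7 and 65.0 in phagocytes, where the GIMAP family was at 50.5 and 28.1. Of the Tmem176a UMIs of naive-like T cells, 1 vehicle cell carried 61.5% and 1 Momordicine-I cell 32.8%.

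Genes whose level followed the summed family most closely were sought over 24 gate sums (12 gates in each of 2 libraries) among 6349 genes, by Pearson correlation of log2(CPM + 10). Immunoglobulin and T cell receptor genes were left out, as were genes under 50 CPM in every sum. The NK gate kept its carcinoma-marker cells here, and the vehicle B gate its plasma-type cells. The ranking without those cells was not computed. The points share 2 libraries and their depth, so the correlations are a description. Ets1, a transcription factor of lymphocytes, came first at r = 0.957, with 11.1 to 1361 CPM over the sums. Septin gene Sept1 followed at 0.941, then Numa1 (0.922), Ablim1 (0.922), Ankrd17 (0.920), Rasal3 (0.909), Kmt2a (0.905) and Satb1 (0.905), the last a chromatin organiser of T cells. Among the members, each of which is part of the sum, Gimap6, Gimap5 and Gimap1 were at 0.981, 0.978 and 0.976. Gimap4 and Gimap7, which were low in ILC2 and nearly or fully absent in basophils, were at 0.8496 and 0.813. Gimap3, also absent in basophils, was at 0.858.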

How the data were processed

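Single-cell RNA was measured in 2 libraries, 1 per arm. The deposited values are whole UMI counts of the authors, not normalized. Per the labels' protocols the chemistry was 10x 3′ v3.1. The submitters' processing notes name Cell Ranger 6.0.2 and mm10. Other counting settings are not given in the sources used here. Totals were 33998491 UMIs over 3642 vehicle barcodes and 41804810 over 4693 Momordicine-I barcodes.

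Barcodes with under 200 genes (25 and 26) or over 10% mitochondrial UMIs (274 and 322) were removed. A gate other than that of neutrophils needed 2 of its markers (3 for stromal and carcinoma cells) and none of the excluded lists. Neutrophil-marker UMIs had to be under 1%, or under 2% for stromal and carcinoma cells. Neutrophils needed at least 2% neutrophil-marker UMIs and no other immune list. UMIs were summed per gate and library and given as CPM. Ratios have exact conditional binomial and shares exact Clopper-Pearson 95% intervals. With 1 library per arm no test was run, and p-values are not given. A gene was measured at 20 UMIs over both libraries and counted as higher or lower at 1.5-fold. Against 0 UMIs a floor of 3 counts per library was used. All 8 members are named, with up to 4 genes per list whose interval lay farthest from 1 and the 8 genes most like the family. Members, markers and lists were chosen with earlier results of these data known. 1 gene of the quiescence list is not reported here, and the list was counted without it. The calculations were tested on simulated counts. Scrublet's automatic threshold marked 2 and 1 barcodes, so doublets were not removed, and removing the top 91 and 153 scores was an alternative. Promoter and motif data came from RefSeq (GRCm38.p6), and positions and transcripts from GENCODE for GRCm38. Python 3.11.15, numpy 2.4.6, scipy 1.17.1, pandas 2.3.3 and scanpy 1.11.5 were used.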

Additional observations from a re-analysis of the deposited data

Results flagged for a closer look

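The direction of the difference between the libraries was opposite in B and T cells for the summed family and for 3 members, with intervals on opposite sides of 1. The ratio of Momordicine-I to vehicle was 1.52 in B cells and 0.8003 in T cells for the family, 1.5 and 0.85 for Gimap5, 1.69 and 0.606 for Gimap6, and 2.69 and 0.792 for Gimap9. With 1 library per arm the difference between the cell types was not tested. The higher Gimap9 level of Momordicine-I B cells was known when the family was chosen. Without the 7 plasma-marker cells of the vehicle B gate the family was at 1.30 in B cells, and with equal weight of the T cell subsets it was at 0.913 in T cells. The 0.913 gives the small gate of other T cells, whose ratio was 1.34 (1.11 to 1.61), the same weight as each larger subset.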

How the results depend on the processing

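No paired analysis was possible because each arm was 1 library, and no replicate could be left out. Over 10 alternative settings, and 4 more chosen after the data were seen, 500 of 558 values of a single member or T cell subset stayed within the interval of the value reported. Another 56 lay outside it without crossing 1 from an interval that excluded 1, and 2 did cross in that way: Gimap4 at 1.04 and Gimap5 at 1.05 in NK cells thinned to 2000 UMIs. In all, 30 of the 558 values lay on the other side of 1 from the value reported, the rest of them for ratios whose interval included 1. They include Gimap4 in B cells, below 1 under 6 of 12 alternatives, Gimap7 in B cells, below 1 under 4, Gimap3 and Gimap8 in B cells, as low as 0.823 and 0.806, and Gimap7 and Gimap5 in naive-like T cells, as high as 1.35 and 1.203.

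The family ratio in B cells became 1.31 without the highest Scrublet scores, 1.80 at most 5% mitochondrial UMIs (98 and 30 cells), 1.26 thinned, 1.29 as a mean over cells and 1.30 without plasma-marker cells. Members higher in B cells numbered 1 without the highest Scrublet scores, as a mean over cells and without plasma-marker cells, and 5 at most 5% mitochondrial UMIs. The cause of these changes was not tested. Without plasma-marker cells 11.3% of all genes were higher. For the other settings the share of all genes was not computed, so their counts have no background beside them. In T cells the family ratio became 0.753 with 3 markers, 0.764 thinned, 0.750 as a mean over cells, 0.710 with a looser limit on other cell types and 0.913 with subsets weighted equally (1 member lower, share of all genes not computed). In NK cells it became 0.537 at most 5% mitochondrial UMIs, 0.820 with 3 markers, 0.667 with a neutrophil limit of 2%, 0.779 thinned, 0.761 as a mean over cells, 0.684 with the looser limit and 0.797 without carcinoma-marker cells. The family stayed above 1 in B cells and below 1 in T and NK cells under all of the 12 alternatives run for each. Depth limits the small gates: Gimap7 in ILC2 rests on 2 and 6 UMIs, and basophil values on 107 and 65 UMIs of the family.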
